A study of Mus musculus with 2 samples.

Results

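The 10 genes described here are the cold-inducible RNA-binding protein genes Cirbp and Rbm3 and 8 targets of heat shock factor: Hspa1a, Hspa1b, Hsph1, Hspa8, Hsp90aa1, Dnajb1, Hspe1 and Hspd1. They are 10 of 12393 genes with an array probe set of their own, except that Rbm3 had none and is represented by a probe set annotated to Rbm3 and to its pseudogene Rbm3-ps. They were chosen by name after values of these same arrays had been seen, so their values are a description and support nothing beyond it. Total RNA came from mouse uterus between implantation sites on day 8 of pregnancy. Both samples came from females aged 4 months, on the background C57Bl/6J X OLA129, housed at 24 °C. One sample had the genotype given as control, with no further allele stated, and the other was Cbs null, from mice homozygous for loss of cystathionine beta-synthase, the enzyme that takes homocysteine into transsulfuration. Each group was 1 array, and it is unstated if that array held RNA of 1 mouse or of several. The values therefore compare 2 samples, not the genotypes: without replicates, nothing here was tested.

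When the temperature of a mammalian cell drops by a few degrees, transcription and translation slow in general, while the small glycine-rich RNA-binding proteins CIRBP and RBM3 increase and bind and stabilise selected messages. Heating, or any stress that unfolds proteins, does the opposite: it releases heat shock factor 1 from chaperones, and the factor binds heat shock elements, inverted repeats of the unit GAA, in the promoters of chaperone genes. HSP70, HSP110 and the J-domain protein DNAJB1 then refold or disaggregate clients together, HSP90 holds signalling proteins and steroid receptors in a form that can be activated, and HSP60 with HSP10 folds proteins inside mitochondria. In uterus, HSP90 and its partners are best known for holding the progesterone and oestrogen receptors ready to bind their hormones.

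Promoter windows were at hand for 7 of the 10 genes, from RefSeq (build GRCm38.p6), each covering the 250 bases before an annotated start. The windows are shown for the genes that differed most between the samples, with Hspe1 for contrast. In the Cirbp window, the more upstream of its windows, capitals mark the octamer TCCCCGCC, known as a mild cold-responsive element of this promoter. In the other windows, capitals mark pairs of heat shock units, GAANNTTC or TTCNNGAA, searched on both strands (each reads the same on the other strand, and neighbouring pairs can overlap). Sequences run 5′ to 3′ on the strand of the gene. Positions are chr10:80167589-80167838 (plus strand) for Cirbp, chr17:34972157-34972406 (minus) for Hspa1a, chr17:34959239-34959488 (minus) for Hspa1b and chr5:149636337-149636586 (minus, the more upstream of its windows) for Hsph1. For Hspe1, 30 bases around its heat shock units are given, chr1:55088053-55088082 (plus).
Cirbp: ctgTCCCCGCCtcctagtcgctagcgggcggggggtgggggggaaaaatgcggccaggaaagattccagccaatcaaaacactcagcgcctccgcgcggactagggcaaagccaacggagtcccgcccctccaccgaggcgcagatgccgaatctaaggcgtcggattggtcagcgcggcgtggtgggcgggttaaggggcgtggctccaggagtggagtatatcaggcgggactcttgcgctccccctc
Hspa1a: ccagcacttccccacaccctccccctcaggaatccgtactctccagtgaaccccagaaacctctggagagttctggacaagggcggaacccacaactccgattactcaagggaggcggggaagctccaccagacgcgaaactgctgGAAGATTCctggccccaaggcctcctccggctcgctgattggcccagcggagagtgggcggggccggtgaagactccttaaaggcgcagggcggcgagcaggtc
Hspa1b: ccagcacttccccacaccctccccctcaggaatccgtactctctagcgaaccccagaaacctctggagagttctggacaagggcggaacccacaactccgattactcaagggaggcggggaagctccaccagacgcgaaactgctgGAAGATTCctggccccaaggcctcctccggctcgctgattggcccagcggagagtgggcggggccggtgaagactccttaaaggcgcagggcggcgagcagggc
Hsph1: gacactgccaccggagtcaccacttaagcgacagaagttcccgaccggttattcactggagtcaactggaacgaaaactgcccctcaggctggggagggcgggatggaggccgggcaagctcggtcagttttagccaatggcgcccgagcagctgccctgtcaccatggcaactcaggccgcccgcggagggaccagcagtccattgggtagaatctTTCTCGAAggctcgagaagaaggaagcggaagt
Hspe1: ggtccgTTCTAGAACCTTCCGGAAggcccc

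Hspa1a and Hspa1b, which lie 10120 bases apart on chromosome 17, differed at 3 of 250 promoter bases. Their transcripts are near copies of each other as well, so their probe sets may pick up both messages, and the split between these 2 genes is uncertain. Either pair of heat shock units stood in 12.8% of the 32851 windows searched. It stood in at least 1 window of 5 of the 6 heat shock genes that had one: Hspa1a, Hspa1b, Hsph1, Hspe1 and Hspd1. The share is over windows and the count over genes, some with more than 1 window, so they are not alike. Nor are the 5 genes separate cases, since the Hspa1a and Hspa1b windows are near copies and Hspe1 and Hspd1 share a stretch. The stricter run of 3 alternating units with the same spacing, on either strand, stood in 0.466% of windows, among them a stretch shared by Hspe1 and Hspd1, whose gene spans meet head to head and overlap by 96 bases. The Dnajb1 windows held neither pair, which says only that these letters are not in those windows. The Cirbp octamer stood in 4.64% of windows, and on the other strand of the Hspa1a and Hspa1b windows too. It was absent from the more downstream Cirbp window, chr10:80167921-80168170. The Cirbp window shown lies inside the RefSeq span of the gene, chr10:80165990-80172786, which begins further upstream.

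Both cold-inducible messages were higher in the Cbs null sample. Cirbp read 73.3 signal units in control and 171 in Cbs null, 2.33-fold higher, a log2 ratio of 1.22. It rests on 1 probe set, and its control signal was not far above 43.2, the level below which signals were treated as unreadable (the floor). The probe set shared by Rbm3 and Rbm3-ps was bright, at 1126 in control and 1723 in Cbs null, 1.53-fold higher (log2 ratio 0.61). Whether the difference lies in Rbm3, which is on chromosome X, or in transcripts of the pseudogene cannot be told apart with this probe set.

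Of the heat shock messages, those of Hspa1a, Hspa1b, Hsph1 and Dnajb1 were lower in the Cbs null sample with every probe set. Hspa1b, one of the paired genes of stress-inducible HSP70, had 3 probe sets. The brightest read 1919 in control and 1247 in Cbs null (1.54-fold lower), the next 1329 and 725 (1.83-fold), and the dimmest 1155 and 562 (2.06-fold). Hspa1a, its near copy, read 450 in control and 329 in Cbs null, 1.37-fold lower. All these HSP70 probe sets read lower in Cbs null, but the size of the difference in Hspa1b depended on the probe set, with log2 ratios from -1.04 to -0.62.

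Hsph1 encodes HSP110, which swaps nucleotide on HSP70 and helps it take aggregates apart. Its probe sets read 722 in control and 497 in Cbs null (1.45-fold lower), and 282 and 183 (1.55-fold lower). Dnajb1, the J-domain protein that delivers clients to HSP70 and stimulates its ATPase, read 453 in control and 355 in Cbs null with one probe set, and 185 and 145 with the other. Each Dnajb1 probe set was 1.28-fold lower. Across the 4 genes Hspa1a, Hspa1b, Hsph1 and Dnajb1, all 8 probe sets were lower in Cbs null, with log2 ratios from -1.04 to -0.35.

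**Figure D1:**
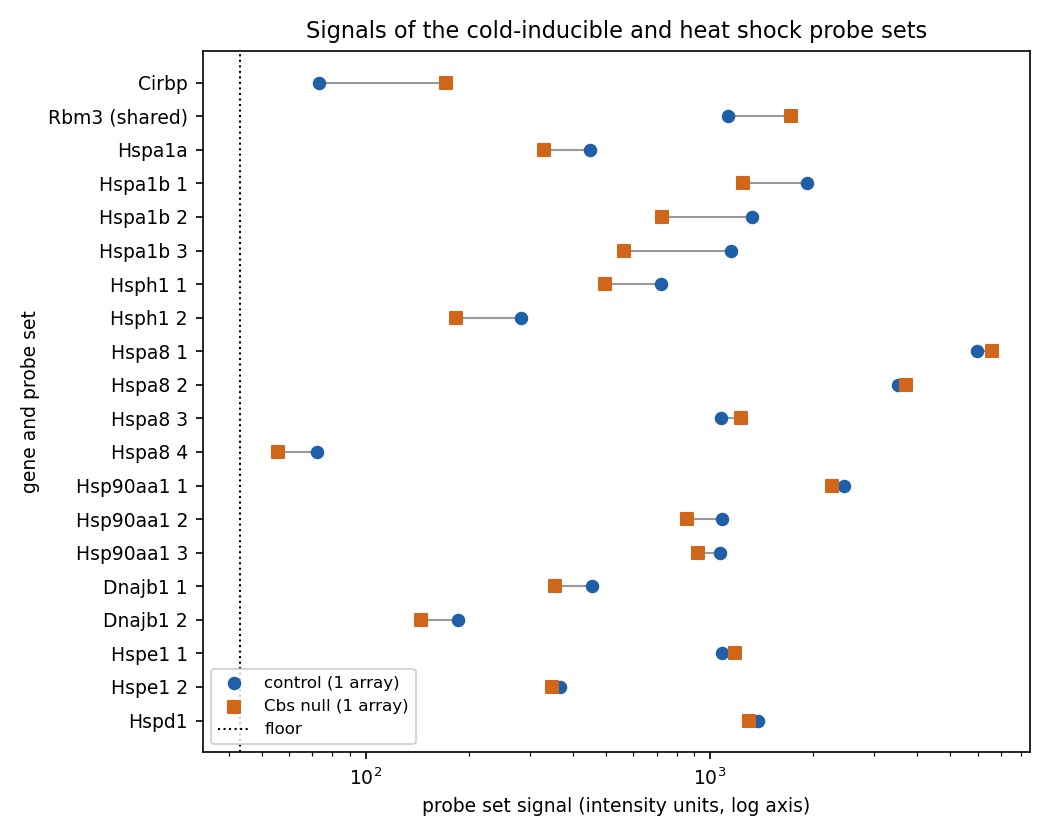
Signal of each member probe set in the control array (circles) and the Cbs null array (squares) on a log axis in intensity units, with the floor of 43.2 as a dotted line; numbers after a gene name count its probe sets from the brightest, and "shared" marks the probe set of Rbm3 and Rbm3-ps. Cirbp and Rbm3 lie further right in Cbs null, the Hspa1a, Hspa1b, Hsph1 and Dnajb1 probe sets further left, and the brightest probe sets of the other 4 genes nearly coincide.

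By their brightest probe sets, Hspa8, Hsp90aa1, Hspe1 and Hspd1 were 1.06-fold to 1.11-fold apart, but a dimmer probe set of Hspa8 and one of Hsp90aa1 were about as far apart as those of Dnajb1. Hspa8, the constitutive HSP70, read 5966 in control and 6607 in Cbs null with its brightest probe set, 1.11-fold higher. Its next probe sets gave 1.05-fold and 1.14-fold higher, and a dim one, at 72.0 and 55.6, gave 1.29-fold lower. Hsp90aa1, the stress-inducible cytosolic HSP90, read 2446 in control and 2261 in Cbs null with its brightest probe set, 1.08-fold lower. Its other probe sets read 1087 and 856 (1.27-fold lower), and 1068 and 926 (1.15-fold lower). So all 3 Hsp90aa1 probe sets were lower, with log2 ratios from -0.35 to -0.11.

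Disagreement between probe sets was judged from genes with more than 1 readable probe set. Across 2757 genes, probe sets of the same gene implied an SD of 0.22 for a log2 ratio. This SD was 0.15 where every signal was at least 4 times the floor and 0.26 where the weaker one was dimmer. It covers disagreement between probe sets within these 2 arrays. It leaves out variation between mice and any error that the probe sets of a gene share, so it understates the full error. By gene value, which is that of the brightest probe set, Hspa1a, Hspa1b, Hsph1 and Dnajb1 lay further than 0.22 below 0, and the other 4 of the 8 heat shock genes lay within 0.22 of 0. Among all measured genes (those above the floor on at least 1 array), 17.9% lay that far below 0. Cirbp lay 1.22 above 0.

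The mitochondrial chaperonin genes differed by less than 1.5-fold with every probe set. Hspd1, which encodes the HSP60 barrel, read 1380 in control and 1303 in Cbs null, 1.06-fold lower. Hspe1, the HSP10 lid made from the neighbouring gene, read 1084 in control and 1182 in Cbs null with one probe set, 1.09-fold higher, and 368 and 348 with the other, 1.06-fold lower. The 2 Hspe1 probe sets thus went opposite ways, each within 0.22 of 0. Hspe1 and Hspd1 are the genes above that share a promoter stretch with at least 3 heat shock units in a row.

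**Figure D2:**
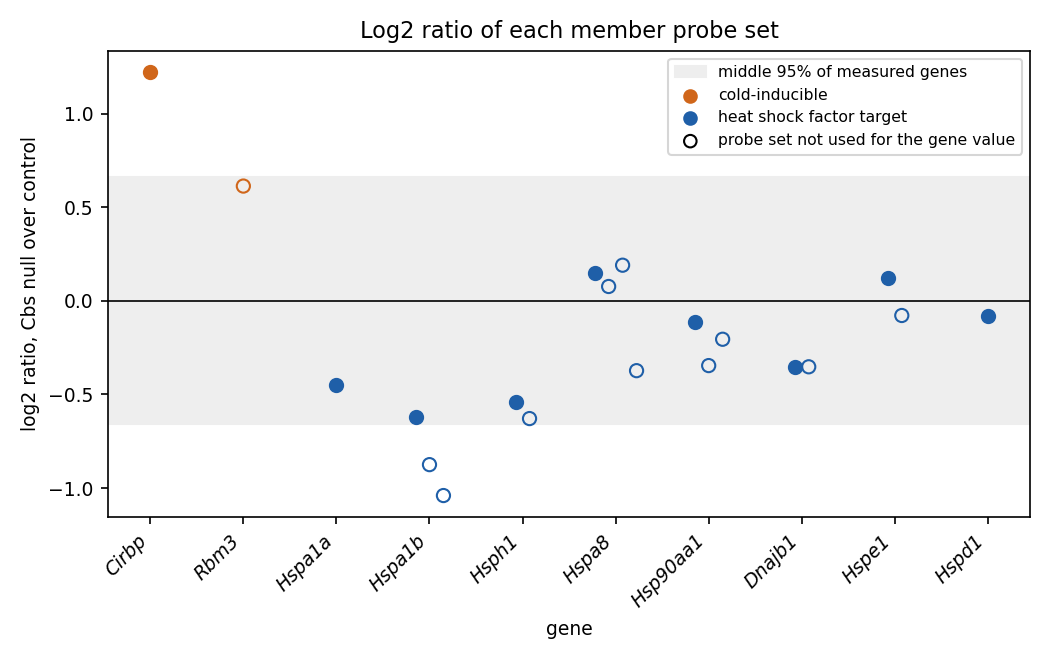
Log2 ratio of Cbs null over control for each probe set of the 10 genes, with filled points for the probe set that gives the gene value and open points for the others; the grey band holds the middle 95% of all measured genes, from -0.66 to 0.66. Cirbp (1.22) and the dimmer Hspa1b probe sets (-0.87 and -1.04) lie outside the band, and the filled points of Hspa8, Hsp90aa1, Hspe1 and Hspd1 lie between -0.11 and 0.15, while an open point of Hspa8 (-0.37) and one of Hsp90aa1 (-0.35) lie level with Dnajb1.

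Counted over genes, 1 member with a probe set of its own was at least 2-fold apart, Cirbp, on the higher side. At that size 1.51% of the 8410 measured genes were apart, 0.797% higher in Cbs null and 0.713% lower. Cirbp stood 35th from the top by log2 ratio. At 1.5-fold, 1 member was higher (Cirbp) and 1 lower (Hspa1b), where 7.03% of measured genes were apart, 3.63% higher and 3.4% lower. The 8 heat shock genes had a median log2 ratio of -0.23, with 6 lower and 2 higher, beside a median of 0.02, 46.5% lower and 53.3% higher among all measured genes. Over their 18 probe sets the median was -0.35, with 14 lower, where 47.2% of all measured probe sets were lower. The cold-inducible median, which is Cirbp alone, exceeded the heat shock median by 1.46 on the log2 scale, and by 1.15 with the shared Rbm3 probe set counted in. With the floor raised to the 60th percentile of signal, 120 units, the control value of Cirbp fell below it, its log2 ratio became 0.51, and no member was 2-fold apart.

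**Figure D3:**
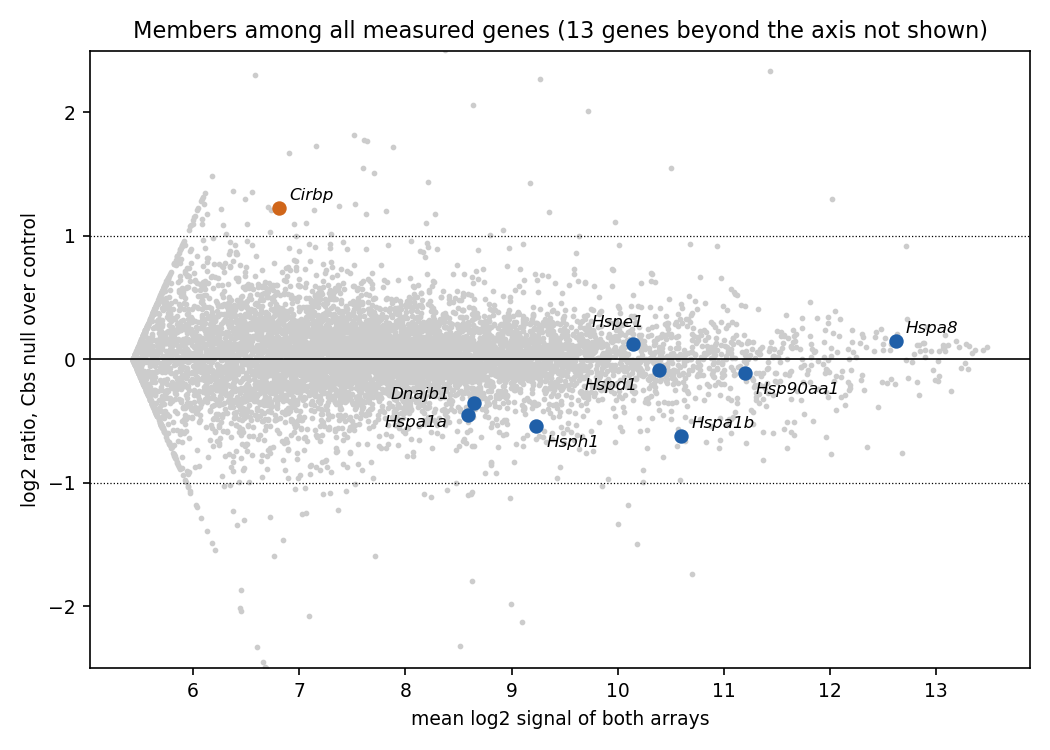
Log2 ratio of Cbs null over control against the mean log2 signal of both arrays for all 8410 measured genes (grey), with Cirbp (orange) and the 8 heat shock genes (blue) named; dotted lines mark 2-fold, and 13 genes beyond 2.5 are outside the axis. Cirbp lies among dim genes, where the spread is wide, whereas Hspa1b, Hsp90aa1 and Hspa8 lie among bright genes, where it is narrow.

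Most other listed targets of heat shock factor were lower as well. They too were listed with earlier results of these data known, so their counts are a description and lend the members no support. Of 18 measured heat shock factor targets outside the members, 15 were lower and 3 higher, with a median log2 ratio of -0.17. At least 1.5-fold lower were 4 of them. Among all measured genes, 46.5% were lower and 3.4% at least 1.5-fold lower. Hspb1, the small heat shock protein HSP27, read 3961 in control and 2403 in Cbs null, 1.65-fold lower, and 3065 and 1561 with a second probe set, 1.96-fold lower. Cryab, the small heat shock protein alpha B-crystallin, read 504 and 311 with its brightest probe set, 1.62-fold lower, and was 1.16-fold lower with another. Serpinh1, the collagen chaperone HSP47 of the endoplasmic reticulum, read 3898 and 2589, 1.51-fold lower, and was 1.54-fold lower with its other probe set. Dnajb4, a J-domain partner of HSP70, read 596 and 391, 1.53-fold lower, and was 1.32-fold lower with its other probe set.

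Small heat shock proteins were the chaperone family with the lowest median, -0.35 over 6 measured genes, of which 4 were lower and 3 at least 1.5-fold lower. That median was -0.63 with the floor at the 60th percentile and -0.19 with each gene's probe sets averaged. The 3 at least 1.5-fold lower were Hspb1 and Cryab, counted above among the other targets, and Hspb7. Hspb7, a small heat shock protein of muscle, read 523 in control and 337 in Cbs null, 1.55-fold lower. Among 31 measured J-domain genes, Dnajb1 and Dnajb4 included, the median was -0.02 with 18 lower. Dnajb5 had the largest difference there, 199 in control and 111 in Cbs null, 1.78-fold lower, and was lower with both its other probe sets. The HSP70 and HSP110 family, which holds the members Hspa1a, Hspa1b, Hsph1 and Hspa8, had a median of -0.09 with 8 of 12 lower. Hspa1b was its only gene at least 1.5-fold apart. Exchange factors and adaptors of HSP70, Hsph1 included, had a median of -0.15 with 9 of 15 lower. The 2 brightest, Bag1 and the ubiquitin ligase gene Stub1, stood at 0.02 and -0.01. These lists count genes described above again, so they are not separate from the members and the other targets.

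No gene of the remaining chaperone lists reached 1.5-fold. The HSP90 family and its co-chaperones had a median of -0.01 with 9 of 17 lower, Hsp90aa1 at -0.11 and the endoplasmic reticulum form Hsp90b1 at -0.14 being the brightest. The cytosolic chaperonin and prefoldin genes, which fold actin and tubulin, had a median of 0.03 with 8 of 13 higher, Cct4 at 0.26 and Cct6a at -0.02. Mitochondrial chaperones and proteases had a median of -0.01 with 8 of 15 lower. Genes of the endoplasmic reticulum stress response had a median of -0.09 with 13 of 19 lower, Hspa5 at 0.06 and Xbp1 at 0.12. The chaperone lists (without the endoplasmic reticulum list) held 101 measured genes, the heat shock members and many of the other targets included. Of these, 57 were lower and 44 higher, the median was -0.02, 6 were at least 1.5-fold lower and 0 at least 1.5-fold higher. Among all measured genes, 46.5% were lower, 3.4% at least 1.5-fold lower and 3.63% at least 1.5-fold higher.

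Of the regulators, 5 of 10 written genes were measured, with a median of 0.00. Dnajb6 stood at 0.11 and the segregase gene Vcp at -0.09. The heat shock factor genes Hsf2 and Hsf4 were below the floor in both samples, and Hsf1 had no probe set of its own in the annotation used. Message levels of the factors do not measure their activity, which is set mainly by release from chaperones and by phosphorylation.

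On the cold side, relatives of the 2 proteins differed less than Cirbp did. Of 9 measured genes for related RNA-binding proteins, 8 were higher and 1 lower, with a median of 0.09, and none reached 1.5-fold. Among all measured genes, 53.3% were higher. Rbmx, a close relative of both proteins that was picked out after its value was seen, read 202 in control and 239 in Cbs null, 1.18-fold higher. Of the brightest, Hnrnph1 stood at 0.05 and Hnrnpa2b1 at 0.29, but the 4 Hnrnpa2b1 probe sets ranged from -0.16 to 1.38 and give no clear direction. Splicing kinases of the CLK and SRPK families and the SR proteins they phosphorylate, which respond to body temperature, had a median of 0.05 with 10 of 17 higher. None of these 17 reached 1.5-fold, and the brightest, Srsf5 and Srsf1, stood at 0.19 and 0.11.

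**Figure D4:**
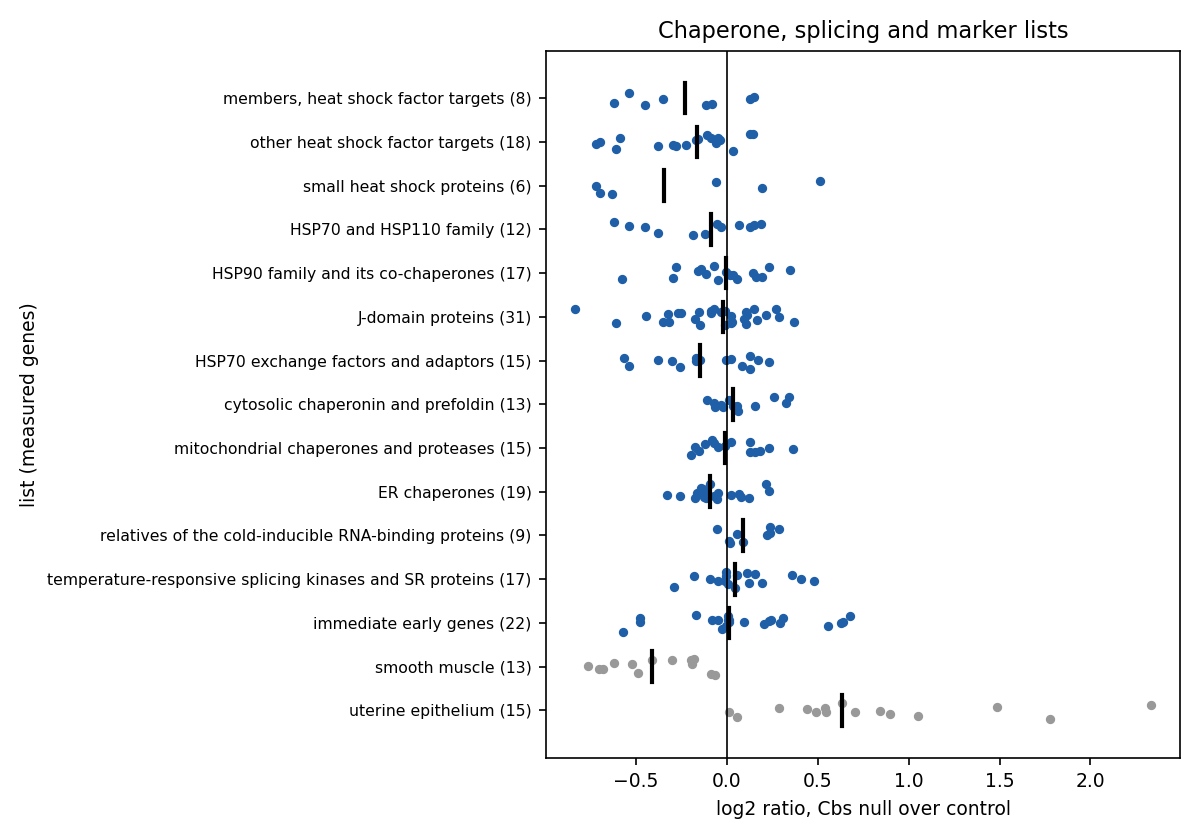
Log2 ratio of Cbs null over control for each measured gene of 15 lists, with the median as a bar and the number of measured genes in brackets; grey points are cell type markers, and points are spread vertically for legibility. Small heat shock proteins (median -0.35) and the heat shock factor targets (-0.23 and -0.17) lie to the left of most chaperone lists, smooth muscle markers (-0.41) further left, and epithelial markers (0.63) to the right.

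Several cell type markers moved between the samples as well, and fewer cells of a type cannot be told apart from less RNA per cell in such tissue. All 13 measured smooth muscle markers of 14 were lower in Cbs null (median -0.41, from -0.77 to -0.07), with a summed signal of 60878 in control and 49693 in Cbs null. Acta2 stood at -0.07 and Tpm2 at -0.18. Smooth muscle is rich in Hspb1, Cryab and Hspb7, and the part of muscle in their lower values was not tested. All 15 measured epithelial markers of 16 were higher (median 0.63), with sums of 7637 and 15059, a ratio of 1.97, Spink1 at 2.33 and Wfdc2 at 0.01. Without Spink1, left out after its value was seen, the sums were 6403 and 8840, a ratio of 1.38, and the median of the other 14, all higher, was 0.59. All 16 macrophage and dendritic cell markers were higher (median 0.54), with sums of 6698 and 9805, Cd74 at 0.49 and H2-Aa at 0.46. Endothelial markers had a median of 0.02 (6 of 12 higher), with Ramp2 at 0.05 and Esam at 0.15. Natural killer cell markers had a median of -0.11 (5 of 9 lower), with Klrd1 at -0.11 and Klra8 at 0.73, and erythroid markers -0.20 (2 of 3 lower), with Car2 at -0.51, Hbb-b2 at -0.20 and Alas2 at 0.72. The erythroid median turned to 0.58 with shared probe sets included and to 0.16 with the floor at the 20th percentile, so it has no settled direction. Stromal and decidual markers had a median of 0.02 (6 of 11 higher), with Vim at 0.24 and Pdgfra at 0.11.

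Some markers of decidua and of natural killer cell granules, chosen here for their values, differed more between the samples than any of the 10 genes. Tdo2, a tryptophan-degrading enzyme of decidual cells, read 685 in control and 27.4 in Cbs null, and the decidual prolactin Prl8a2 read 424 and 5.8. The granzyme genes Gzma, Gzmb and Gzmc read 113, 178 and 126 in control and 39.7, 12.6 and 6.5 in Cbs null, where these and the decidual genes lay under the floor. Each of these messages was thus readable in control alone. Of 8 trophoblast and embryo markers with a probe set, none was above the floor. The part of these shifts in the values of Cirbp, Rbm3 and the heat shock genes was not tested.

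Of the tissue label, the uterus was met by Hoxa10, at 1188 in control and 1359 in Cbs null, and Hoxa11, at 1082 and 1077. These are transcription factor genes of the uterus. Pgr (49.1 and 36.8) was at the edge of the floor and Esr1 (23.9 and 37.9) below it. None of these genes shows whether the tissue lay between implantation sites. The decidual and granzyme genes above were readable in control alone, and whether the samples differed in implantation site tissue was not tested. Cbs read 79.8 in control and 42.6 in Cbs null, just below the floor, with one probe set. Its other probe set, at 39.8 and 25.1, was below the floor in both samples. The arrays had medians of 74.55 and 75.6 and were on one scale. Ratios of 3′ to 5′ signal were 1.31 and 1.25 for Gapdh and 1.95 and 2.05 for Actb. Immediate early genes, which respond within minutes to many stimuli, had a median of 0.01, with 14 of 22 measured higher and 3 at least 1.5-fold higher: Dusp1 (1.60-fold), Btg2 (1.56-fold) and Fos (1.55-fold). Their part in the lower heat shock values was not tested.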

How the data were processed

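The values deposited by the authors are linear signal intensities, 1 for each probe set on each array. Biotin-labelled cRNA was made from 2 microg of total RNA, per the labels' protocols, and the submitters' processing notes list GCOS 1.4. How signals were summarised and scaled is not given in the sources used here, and no detection calls were used. Trimmed means (2% off each end) were 200.08 and 200.07, so values were used as deposited.

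Of 22626 probe sets other than Affymetrix controls, 20380 had 1 gene symbol, 691 several and 1555 none. Gene IDs of 20351 matched RefSeq (GRCm38.p6), which changed no symbol. A gene took the value of its 1-symbol probe set of highest mean log2 signal. Before log2 ratios were taken, a floor was set at 43.2, the 40th percentile over the 2 arrays, and dimmer signals were given that value, so ratios of dim genes are understated. Sizes of 2-fold and 1.5-fold served as descriptions. The size rule and the error estimate were tried on simulated data, with equal noise on every probe set and 3-fold changes in bright genes only. That run therefore does not cover dim genes such as Cirbp, or differences as small as those of the heat shock genes. Analyses used Python 3.11.15, numpy 2.4.6 and pandas 2.3.3.

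The members and all 23 gene lists were chosen with earlier results of these data known. Named genes were the members, then per pathway list up to 4 genes at least 1.5-fold apart or else the 2 brightest, and the 2 brightest markers per marker list. Other genes are said to be picked out or serve as checks. No gene of like pattern is named, since 2 arrays give 1 ratio per gene. The number of arrays limits the precision.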

Additional observations from a re-analysis of the deposited data

Results flagged for a closer look

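One signal lay outside the gene values used above. For alpha-globin (Hba-a1 with Hba-a2), the dimmest shared probe set read 505.5 in control and 1179 in Cbs null, 2.33-fold higher, while 2 brighter ones were 1.48-fold and 1.54-fold higher. A beta-globin probe set shared by Hbb-bt, Hbb-bs, Hbb-b2 and Hbb-b1 was 1.51-fold higher. Hbb-b2 with a probe set of its own read 89.2 and 77.7, and the carbonic anhydrase gene Car2, of red cells among others, stood at -0.51. No explanation was tested.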

How the results depend on the processing

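Of 10 alternatives, all planned, raising the floor to the 60th percentile moved most: 0 members were then 2-fold apart, the cold-inducible median was 0.51 and its lead over the heat shock median 0.74, since the control value of Cirbp lay below that floor. Including probe sets with several symbols, which adds Rbm3, gave 0.92 and 1.15. With a size of 1.5-fold 2 members were apart, and with 3-fold 0. The heat shock median kept its sign and moved by less than 0.22 under every alternative that applies to it. Of 72 single member values, 70 moved by less than 0.22. The exceptions were Cirbp and Hspa1b, which reached -0.85 with its probe sets averaged. Hspe1 changed sign (-0.08) without the _s_at and _x_at probe sets. Of 159 list medians, 3 moved by more than 0.22 (the erythroid one under 2 alternatives, with its sign changed, and that of the small heat shock proteins), and 8 changed sign in all. The share of measured genes at least 2-fold apart was 1.51%, but 4.35% with the floor at the 20th percentile. No paired analysis was possible because each group had 1 array, and no array could be left out. Values near the floor, such as those of Cirbp, are the least secure.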

Other observations

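Some chaperone partners and RNA-binding proteins were seen only, or in part, by probe sets that other genes share. Ptges3, the HSP90 co-chaperone p23, shares both its probe sets with a pseudogene, and they stood at -0.02 and 0.03. Ppid, an HSP90-binding prolyl isomerase, shares one with Lamp3, which read 385 in control and 336 in Cbs null. The 3 probe sets annotated to Hnrnpa1 and its copies were 1.08-fold, 1.45-fold and 1.49-fold higher in Cbs null. Hnrnpa1 also had a brighter probe set of its own, at 1010 in control and 1179 in Cbs null, 1.17-fold higher. Of the 3 shared by Rbm10 and Gm15455, the brightest read 545.5 and 543.7, and the dimmest, close to the floor, was 1.57-fold lower.

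Genes that missed 1.5-fold narrowly, picked out after their values were seen, included Fkbp5, a steroid-responsive co-chaperone of HSP90, at 307 in control and 206 in Cbs null. Bag2, an adaptor that restrains the ubiquitin ligase acting with HSP70, read 312 and 211. The immediate early gene Atf3 was lower too, at 125 and 83.9. On the higher side, the immediate early gene Ier2 read 247 in control and 363 in Cbs null. The small heat shock protein gene Hspb2, which was dim, read 56.5 and 80.6.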
